A study of Mus musculus with 2 samples.

Results

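The 37 genes described here encode cyclins, cyclin-dependent kinases, DNA replication proteins and mitosis proteins, and together they trace the cell division cycle in an adult mouse gut sample. They were chosen by symbol from a fixed set of cell cycle genes, and all 37 were found among the 43346 annotated genes. PolyA RNA longer than 200 nt was sequenced as stranded paired reads of 76 nt. The labels give 1 group, large intestine from 8-week-old mice of the inbred strain C57BL/6J, with no transgene, deletion or treatment named. Its 2 libraries, replicate 1 and replicate 2, were each labelled as a pool of male and female littermates, and both biosamples share 1 donor record. With 1 group there is no comparison between conditions, and the libraries could only be set against each other singly, with no test.

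Several values go against the labels. The colon epithelium markers Car1, Aqp8 and Atp12a summed to 0.28 TPM (a share of all transcripts, corrected for their length) in replicate 1 and 0.32 TPM in replicate 2, and none of the 3 reached 1 TPM. Markers of Paneth cells (Lyz1, Mmp7 and Ang4), which line the crypts of the small intestine, summed to 5324 and 7858 TPM. The ileal gene Fabp6 was at 477 TPM in replicate 1 against 5279 TPM in replicate 2, whereas the lactase gene Lct was at 152 and 9.94 TPM. The 4 Y-linked genes examined had 2741 expected counts in replicate 1 and 3 in replicate 2, and Xist had 17 and 12563, so the libraries also go against the label of pooled sexes and were not made from the same animals. Depth was 50189619 expected counts in replicate 1 and 58233142 in replicate 2. The part of these differences in the values reported here was not tested, and the tissue is called by its label only.

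In a dividing cell, D-type and E-type cyclins with their kinases carry the cell through G1, and release of E2F factors from the retinoblastoma protein turns on the genes of DNA replication. Mcm helicase subunits are loaded onto origins by Cdc6 and Cdt1, DNA is copied in S phase, and cyclin B with Cdk1 then drives entry into mitosis, which ends when the anaphase-promoting complex with Cdc20 destroys cyclin B. Mitosis genes are known to be turned on late in the cycle through a promoter element called the cell cycle genes homology region (CHR), often beside CCAAT boxes. In the gut, division is known to take place mainly in the crypts, and B cells in lymphoid follicles divide as well. In bulk tissue, fewer cells of a type and less RNA per cell cannot be told apart.

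The promoters of replication and mitosis genes were searched for these motifs. RefSeq windows from 250 bases before to 50 after the gene start (build GRCm38.p6, the assembly also called mm10) were found for 28 of the 37 genes. Ccnd1, Ccnd2, Ccne2, Mcm4, Gmnn, Ccna2, Tpx2, Kif20a and Aurkb had no entry. Both strands were searched, overlapping matches included, for E2F motifs (TTTGGCG and TTTGCCG, together with TTTCGCG and TTTCCCG), for CHR motifs (TTTGAA and TTCGAA) and for CCAAT. An E2F motif was found in 5 of 9 replication genes (Mcm3, Mcm5, Mcm6, Mcm7 and Cdc6) and in 2 of 12 mitosis genes (Cdk1 and Birc5), against 7.65% of all 27025 genes with a window and 12.1% of the 10015 of them with a mean of at least 1 TPM. A CHR motif was found in 9 of the 12 mitosis genes and in 2 of the 9 replication genes (Mcm2 and Mcm7), against 21.7% of all genes and 16.5% of those at 1 TPM. CCAAT occurred in 11 of 12 mitosis genes and 8 of 9 replication genes, against 41.1% and 42.1%. CHR and CCAAT stood together in 9 of 12 mitosis genes, against 9.65% and 8.03%.

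**Figure D1:**
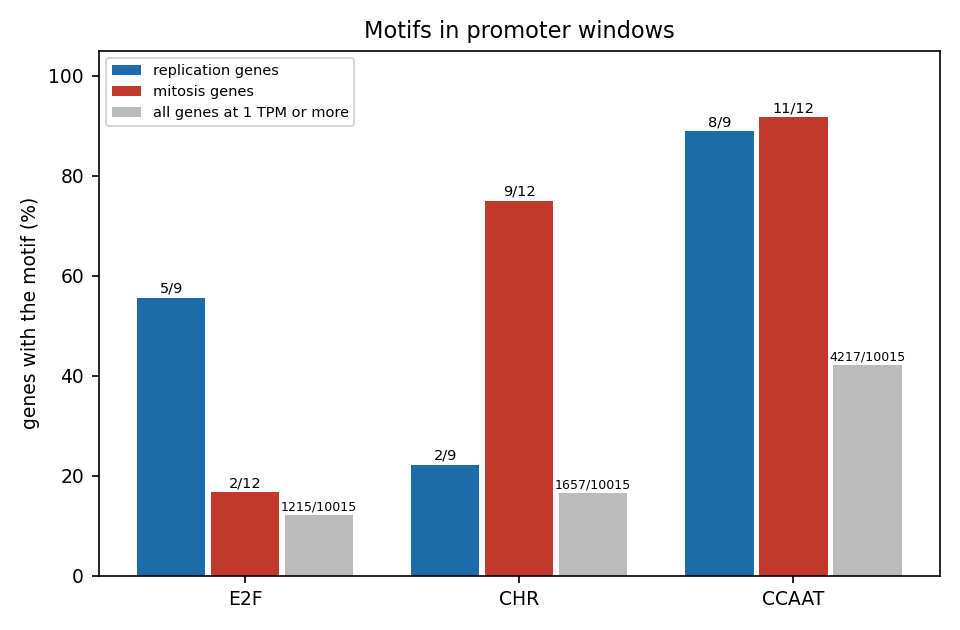
Share of genes (%) with an E2F, CHR or CCAAT motif in the 300-base promoter window, for replication genes, mitosis genes and all 10015 genes that have a window and a mean of at least 1 TPM. Numbers over the bars are genes with the motif over genes with a window. E2F is most frequent in the replication bars (5 of 9) and CHR in the mitosis bars (9 of 12), while CCAAT is frequent in both.

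The 160 bases before the RefSeq start are printed for 8 chosen genes. These are replication genes (Mcm5 and Mcm6), the G1/S kinase gene Cdk2, mitosis genes (Cdk1, Cdc20 and Kif11) and the usual proliferation markers (Mki67 and Top2a). Exceptions are not printed: the windows of Mcm2, Pcna, Rrm1 and Rrm2 held no E2F match, and those of Ccnb1, Cenpe and Birc5 no CHR match. Capitals mark E2F, CHR and CCAAT matches on either strand.
Mcm5: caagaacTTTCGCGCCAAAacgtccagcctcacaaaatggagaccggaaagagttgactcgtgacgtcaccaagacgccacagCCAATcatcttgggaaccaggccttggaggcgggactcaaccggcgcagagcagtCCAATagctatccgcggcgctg
Mcm6: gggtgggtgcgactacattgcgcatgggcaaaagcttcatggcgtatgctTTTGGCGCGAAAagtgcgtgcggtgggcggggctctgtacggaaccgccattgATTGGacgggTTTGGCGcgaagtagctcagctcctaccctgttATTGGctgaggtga
Cdk2: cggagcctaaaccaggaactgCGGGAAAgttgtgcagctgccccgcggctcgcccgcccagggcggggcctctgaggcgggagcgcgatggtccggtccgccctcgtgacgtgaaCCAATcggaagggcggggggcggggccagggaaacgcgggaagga
Cdk1: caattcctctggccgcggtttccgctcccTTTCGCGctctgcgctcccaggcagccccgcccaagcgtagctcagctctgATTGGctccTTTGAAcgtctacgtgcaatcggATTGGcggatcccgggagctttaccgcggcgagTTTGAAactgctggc
Cdc20: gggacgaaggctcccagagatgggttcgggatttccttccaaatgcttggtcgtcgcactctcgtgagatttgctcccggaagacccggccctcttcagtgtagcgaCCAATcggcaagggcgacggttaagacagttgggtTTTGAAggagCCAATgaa
Kif11: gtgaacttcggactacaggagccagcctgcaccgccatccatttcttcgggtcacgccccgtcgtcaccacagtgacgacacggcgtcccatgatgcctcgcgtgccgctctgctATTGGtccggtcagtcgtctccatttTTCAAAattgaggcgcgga
Mki67: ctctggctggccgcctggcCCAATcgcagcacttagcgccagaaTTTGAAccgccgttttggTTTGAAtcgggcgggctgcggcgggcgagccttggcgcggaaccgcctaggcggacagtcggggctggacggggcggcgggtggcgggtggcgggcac
Top2a: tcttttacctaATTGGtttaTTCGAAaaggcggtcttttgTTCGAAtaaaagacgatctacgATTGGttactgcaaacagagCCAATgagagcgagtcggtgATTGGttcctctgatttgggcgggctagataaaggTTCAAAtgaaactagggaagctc
They lie at chr8:75109349-75109508 for Mcm5 and chr19:37376222-37376381 for Kif11 on the plus strand. The other six are on the minus strand, at chr1:128359706-128359865 for Mcm6, chr10:128705052-128705211 for Cdk2, chr10:69352913-69353072 for Cdk1, chr4:118437344-118437503 for Cdc20, chr7:135716380-135716539 for Mki67 and chr11:99024190-99024349 for Top2a. Positions of a motif are counted back from the start, with -1 the base next to it, and give the leftmost base of the match. In Mcm5 and Mcm6 the E2F letters overlap on opposite strands, at -153 and -148 in Mcm5 and at -110 and -105 in Mcm6. Cdk1, the mitotic kinase gene, holds an E2F match at -131 and CHR matches at -71 and -15, the latter after CCAAT boxes at -80 and -48. The CHR match lies at -18 in Cdc20 and at -19 in Kif11, each preceded by a CCAAT box, at -53 and -45. Mki67 has CHR matches at -116 and -98. Top2a, which encodes the topoisomerase that untangles chromosomes, has 4 CHR and 6 CCAAT matches in the whole window. Within the part of the window before the start, CHR was found in 5 of 12 mitosis genes and 19.6% of all genes, because the matches of Plk1, Aurka, Bub1 and Cenpf lie past the start. CHR and CCAAT stood together there in 5 of 12 mitosis genes, against 7.93% of all genes. E2F was found there in 4 of 9 replication genes, against 6.34%, because the matches of Mcm3 lie past the start. A match describes the letters only and says nothing of binding.

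The 37 genes held little of the RNA and spanned a wide range of levels. They summed to 829 TPM in replicate 1 against 880 TPM in replicate 2, or 0.0829% and 0.0880% of all TPM. Of these genes 34 reached 1 TPM in both libraries and 35 had a mean of at least 1 TPM. Means ran from 0.39 TPM for Ccne2 to 79.8 TPM for Pcna, a ratio of 205, with 19 genes over 20 TPM and 9 under 5 TPM. The 5 most abundant (Pcna, Ccnd1, Cdc20, Cdk1 and Ccna2) held 36.99% of the total, and they serve different phases. Counts per gene ran from 49 to 14726.

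**Figure D2:**
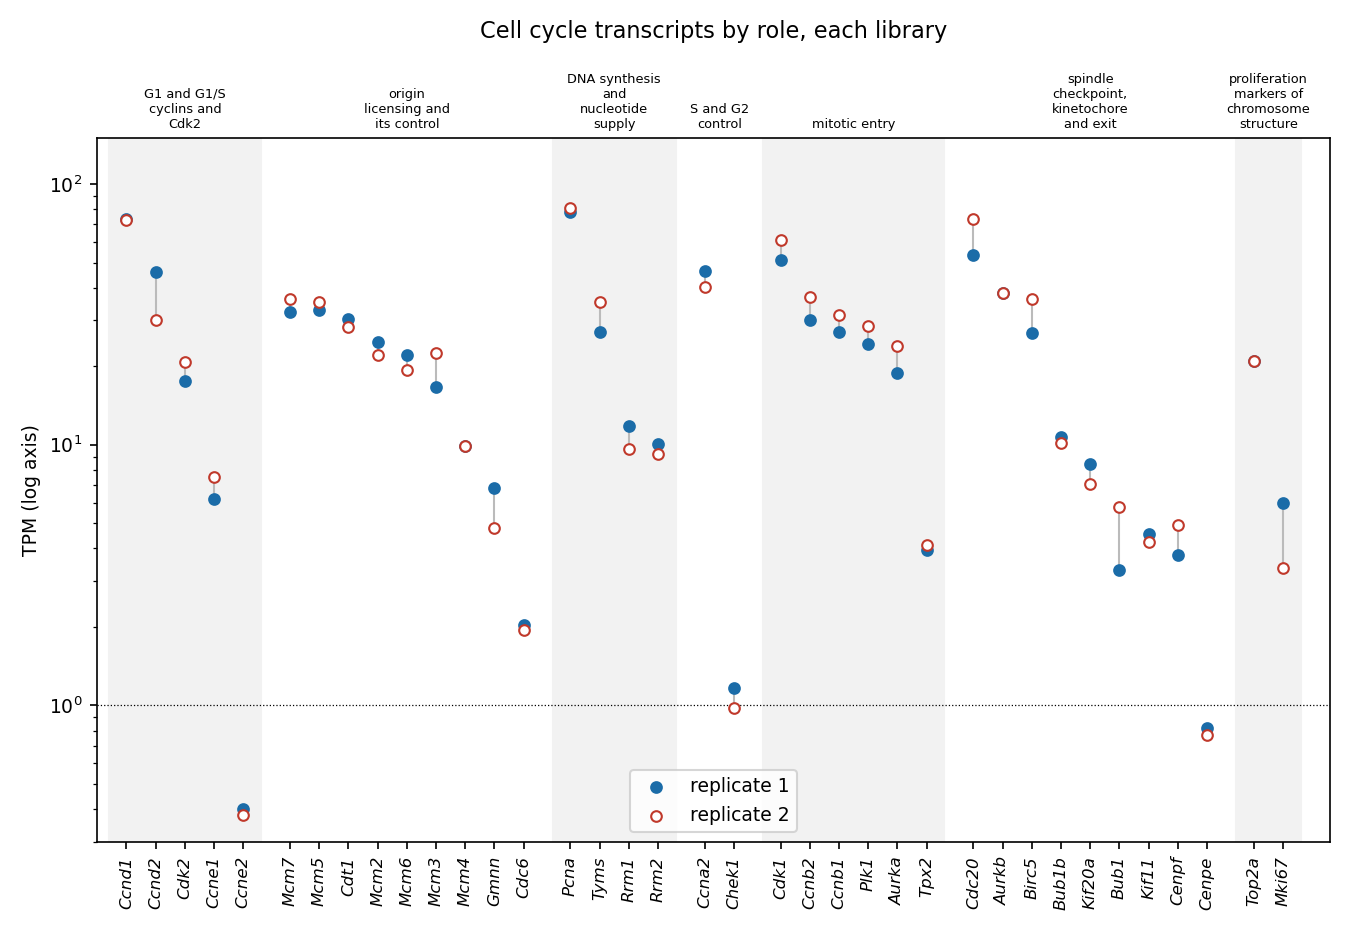
Level of each of the 37 genes in TPM (log axis) in replicate 1 (filled) and replicate 2 (open), grouped by role and ordered by mean within a role; the dotted line is 1 TPM. Levels differ between the genes of each role, and for most genes the libraries lie close together compared with the distance between genes.

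Cyclin D genes led G1. Ccnd1, which encodes cyclin D1, the partner of Cdk4 and Cdk6, was at 73.5 TPM in replicate 1 against 73.1 TPM in replicate 2. Ccnd2, the gene of cyclin D2, was at 46.0 and 30.1 TPM, a log2 ratio of replicate 2 over replicate 1 of -0.60 after adding 1 TPM to each. Thus Ccnd1 was level between the libraries while Ccnd2 was higher in replicate 1. The E-type cyclin genes, which act at the G1/S boundary, were far lower. Ccne1 was at 6.17 and 7.53 TPM. Ccne2 was at 0.40 and 0.38 TPM from 49 and 61 counts, below 1 TPM in both libraries. The kinase gene that both E-type cyclins serve, Cdk2, was at 17.5 and 20.8 TPM.

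Genes of origin licensing were present in unequal amounts although their products work in shared complexes. The 6 Mcm genes encode the subunits of a ring that holds each in the same number, yet their mean levels ran from 9.86 TPM for Mcm4 to 34.3 TPM for Mcm7. Mcm7 was at 32.2 TPM in replicate 1 against 36.4 TPM in replicate 2, and Mcm5 at 32.8 and 35.2 TPM. Mcm2 was at 24.9 and 22.2 TPM, Mcm6 at 22.1 and 19.3 TPM, and Mcm4 at 9.86 and 9.85 TPM. The order Mcm7, Mcm5, Mcm2, Mcm6 and Mcm4 was thus not the same in the libraries at its top, where Mcm5 led in replicate 1 and Mcm7 in replicate 2, but Mcm4 was lowest in both. Mcm3 was at 16.6 and 22.4 TPM, below Mcm2 and Mcm6 in replicate 1 and above both in replicate 2. Mcm7 and Mcm5 (34.3 ± 2.96 and 34.01 ± 1.71 TPM, SD, n = 2) did not differ beyond their spread, nor did Mcm6 and Mcm3 (20.7 ± 2.01 and 19.5 ± 4.14 TPM, SD, n = 2). Of the loaders, Cdc6 was scarce at 2.03 and 1.95 TPM, whereas Cdt1 was at 30.4 and 28.2 TPM. Gmnn, which encodes geminin, the inhibitor of Cdt1, was at 6.85 and 4.8 TPM, lower than Cdt1 in each library.

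DNA synthesis and nucleotide supply held the most abundant gene of all 37. Pcna, the gene of the sliding clamp that holds polymerases on DNA (chromosome 2, 132249162 to 132253314, mm10), was at 78.5 TPM in replicate 1 against 81.1 TPM in replicate 2, percentile 89.0 of the 13512 genes with a mean of at least 1 TPM. The deposited TPM bounds of the libraries overlapped. The ribonucleotide reductase genes, whose products make deoxyribonucleotides, were much lower and close to each other. Rrm1 was at 11.8 and 9.66 TPM and Rrm2 at 10.1 and 9.18 TPM. Tyms, the gene of thymidylate synthase, was at 27.2 and 35.1 TPM, of which 4.74 and 4.42 TPM came from its protein-coding transcript.

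Of the S and G2 control genes, Ccna2, which encodes cyclin A2, was abundant at 46.6 TPM in replicate 1 against 40.2 TPM in replicate 2. Chek1, the gene of the replication checkpoint kinase, was at 1.17 and 0.98 TPM from 99 and 138 counts, the lowest of the 35 genes with a mean of at least 1 TPM.

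All 6 genes of mitotic entry were higher in replicate 2 by TPM, against 33.3% of all genes. They were also higher by TMM-scaled counts (counts scaled between the libraries), against 51.5% of all genes, and over coding transcripts. Cdk1 was at 51.1 TPM in replicate 1 against 61.2 TPM in replicate 2, and its cyclin genes Ccnb1 and Ccnb2 were at 27.1 and 31.3 TPM and at 30.2 and 36.9 TPM. The Polo-like kinase gene Plk1 was at 24.3 and 28.6 TPM, and the centrosome kinase gene Aurka at 18.8 and 24.0 TPM. The differences are small but point 1 way. Tpx2, whose product activates the Aurka kinase on spindle microtubules, was scarce at 3.95 and 4.14 TPM. The deposited bounds of the libraries did not overlap for 5 of the 6, Tpx2 being the exception, against 14.7% of all genes with replicate 2 higher.

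Genes of the spindle checkpoint, kinetochore and mitotic exit ranged more widely. Cdc20, the activator of the anaphase-promoting complex (chromosome 4, 118432901 to 118437352), was at 53.2 TPM in replicate 1 against 73.8 TPM in replicate 2, a log2 ratio of 0.46. Aurkb and Birc5 encode the kinase and the survivin subunit of the chromosomal passenger complex. Aurkb was at 38.3 TPM in both libraries, while Birc5 was at 26.8 and 36.2 TPM. By TPM these partners in 1 complex differed in log2 ratio (0.00 for Aurkb and 0.42 for Birc5), but by TMM-scaled counts they were close, at 0.33 and 0.41, and Aurkb was at 0.21 over coding transcripts. The checkpoint kinase gene Bub1 was at 3.30 and 5.75 TPM, and Bub1b, the gene of BubR1, at 10.7 and 10.2 TPM. The motor and large kinetochore proteins were encoded by scarce transcripts. Kif20a, a cytokinesis kinesin gene, was at 8.41 and 7.05 TPM, and Kif11, the bipolar spindle kinesin gene, at 4.56 and 4.24 TPM. Cenpf was at 3.79 and 4.94 TPM, and Cenpe at 0.82 and 0.77 TPM from 275 and 339 counts, the only mitosis gene below 1 TPM.

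The usual proliferation markers differed in level. Mki67, whose product Ki-67 coats mitotic chromosomes (chromosome 7, 135689784 to 135716361), was at 6.00 TPM in replicate 1 against 3.35 TPM in replicate 2, a log2 ratio of -0.69. Top2a was at 21.03 and 20.9 TPM. Mki67 was thus among the lower genes here, at percentile 29.0, and the furthest apart in favour of replicate 1, whereas Top2a was level by TPM over all its transcripts (log2 ratio -0.01). Over coding transcripts alone Top2a was at 8.39 and 6.65 TPM, a log2 ratio of -0.30, the same direction as Mki67.

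Between the libraries, few of the genes lay far apart. At least 1.5-fold (0.585 on the log2 scale) separated the libraries for 3 of the 35 genes, or 8.57%, against 17.5% of all 13512 genes. These were Mki67 (-0.69) and Ccnd2 (-0.60), higher in replicate 1, and Bub1 (0.65), higher in replicate 2. No member was 2-fold apart, against 5.64% of all genes. By direction, 1 of the 35 was at least 1.5-fold higher in replicate 2, against 3.06% of all genes, and 2 in replicate 1, against 14.5%.

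The direction over the members was divided. Of the 35 genes 18 were higher in replicate 2, while 33.3% of all genes were. Their median log2 ratio was 0.00 against -0.14 for all genes, and 27 of the 35 lay above that all-gene median. The deposited bounds of the libraries did not overlap for 12 genes with replicate 2 higher (34.3%, against 14.7% of all genes) and for 7 genes with replicate 1 higher (20%, against 42.2%). Counts scaled by TMM are not corrected for transcript length. On this scale the median was 0.19 for the members and 0.01 for all genes. Past 1.5-fold were 2 genes, against 13.4% of all genes: Mki67 (-0.65) and Cdc20 (0.67). On both scales the members' median lay above that of all genes.

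**Figure D3:**
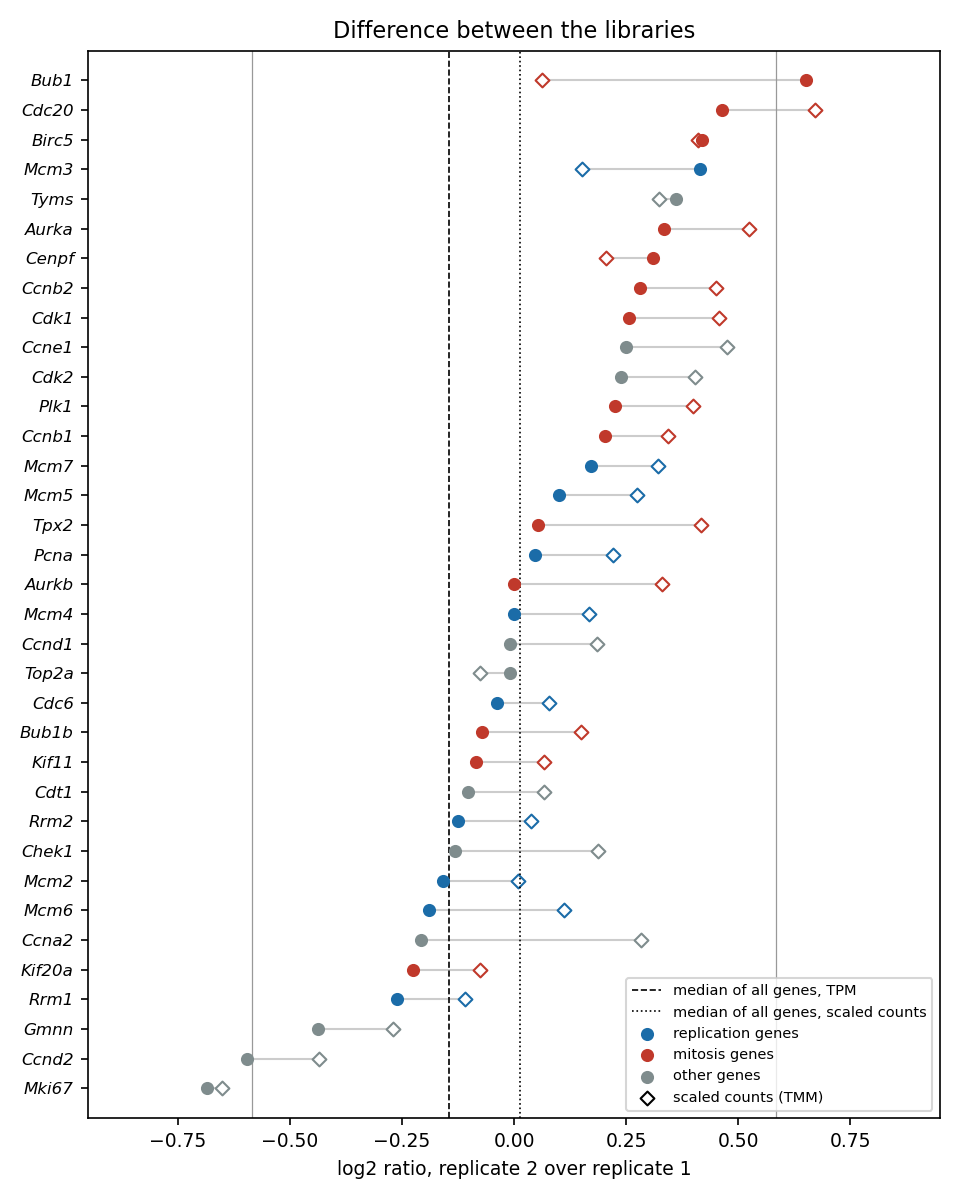
log2 ratio of replicate 2 over replicate 1 for the 35 genes with a mean of at least 1 TPM, from TPM (filled) and from TMM-scaled counts (open diamonds), coloured as replication, mitosis and other genes. Dashed and dotted lines are the medians of all genes on each scale (-0.14 and 0.01), and grey lines mark 1.5-fold. Mki67 and Ccnd2 lie at the bottom and mitosis genes crowd the top, where Bub1 moves from 0.65 to 0.06 between the scales.

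Replication and mitosis genes were then set against each other. In level they did not stand apart: the median of the 10 replication genes was 19.4 TPM in replicate 1 against 20.7 TPM in replicate 2, and that of the 15 mitosis genes 18.8 and 24.0 TPM. The replication to mitosis ratio was 1.03 in replicate 1 and 0.864 in replicate 2, or 0.946 ± 0.116 (SD, n = 2). The order changed with the measure. Geometric means gave ratios of 1.39 and 1.20, and medians over protein-coding transcripts alone gave 1.39 (15.6 over 11.2 TPM) and 1.26 (15.03 over 11.9 TPM). Each list also held both abundant and scarce genes, from 1.99 to 79.8 TPM (replication) and from 0.795 to 63.5 TPM (mitosis).

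In the difference between the libraries the mitosis genes stood higher. Of the 14 mitosis genes with a mean of at least 1 TPM, 11 were higher in replicate 2, with a median log2 ratio of 0.24, while 4 of the 10 replication genes were, with a median of -0.02, and 33.3% of all genes. The distance between these medians was 0.26. Mitosis genes higher in replicate 1 were Bub1b, Kif11 and Kif20a, by small amounts (-0.07, -0.09 and -0.23). Among replication genes Mcm3, Mcm7, Mcm5 and Pcna were higher in replicate 2, and Rrm1 lay lowest at -0.26. TMM-scaled counts put the medians at 0.37 and 0.13, with 13 of 14 mitosis and 9 of 10 replication genes higher in replicate 2, against 51.5% of all genes. Protein-coding transcripts alone put them at 0.22 and -0.03. Mitosis lay above replication by 0.16 to 0.29 in all 11 alternatives computed.

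Transcript length moved with these ratios. Over all genes the median log2 ratio went from 0.05 for genes under 1000 nt to -0.42 for genes over 6000 nt, lower with each longer class. By TMM-scaled counts it went from 0.16 to -0.33, so the ratios of scaled counts moved with length as well. The subtraction below used TPM ratios only. The mitosis genes tested had a median length of 1786 nt and the replication genes 3004 nt. After the median of the length class was subtracted from each gene, the medians were 0.31 for mitosis, with 14 of 14 genes above their class, and 0.15 for replication, with 8 of 10 above; the class median divides all its genes evenly. The distance between the lists was then 0.16. Mki67, at 10075 nt the longest of the 37, went from -0.69 to -0.26 and Ccnd2, at 5701 nt, from -0.60 to -0.27. Only Bub1 then passed 1.5-fold, against 13% of all genes, so the members furthest apart in favour of replicate 1 were both long. Gmnn, at 962 nt, did not follow length: its ratio was -0.44, and -0.48 after the subtraction.

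**Figure D4:**
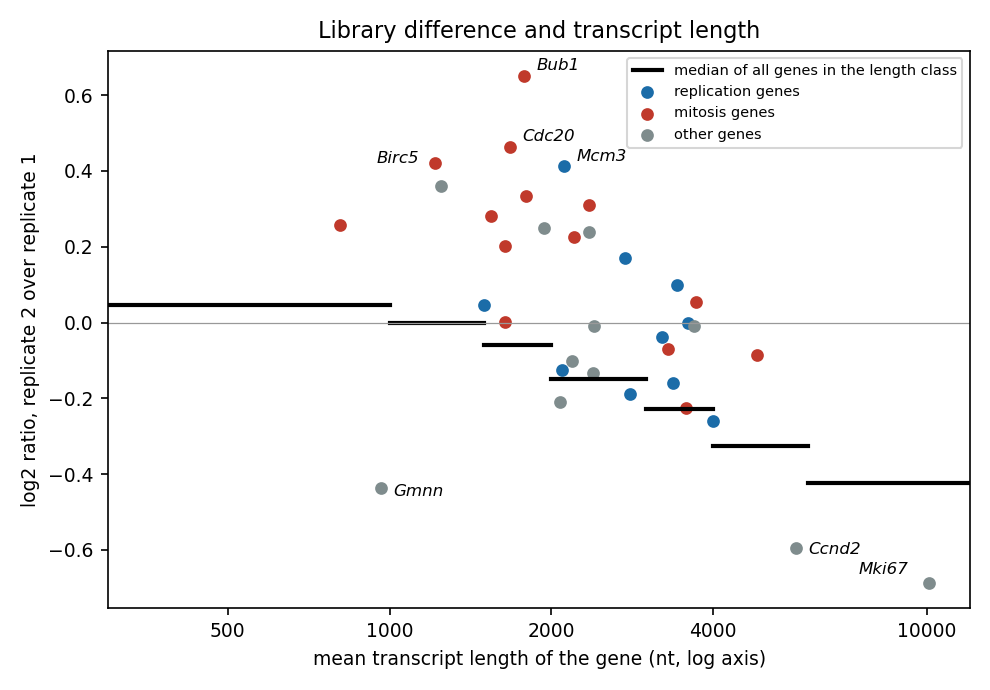
log2 ratio of replicate 2 over replicate 1 against the mean transcript length of the gene (nt, log axis) for the 35 genes with a mean of at least 1 TPM; black bars are the medians of all genes in 7 length classes. The bars step down from 0.05 to -0.42, and all 14 mitosis genes lie above the bar of their class.

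Transcript assignment changed the picture for a few genes. By shares averaged over the libraries, the transcript with the most of the gene's TPM was protein-coding for 32 of the 37 genes, and by share of expected counts for all 37. In replicate 1 alone it was for 31 genes and in replicate 2 alone for 32, since Ccna2 and Chek1 were led by noncoding transcripts in replicate 1 and Bub1 in replicate 2. The exceptions by averaged TPM were transcripts shorter than the coding transcript with the most counts, and their counts ranged from few to many. For Cdk1, the retained-intron transcript Cdk1-203, of 378 nt, held 48.3% of the TPM in replicate 1, against 46.5% in replicate 2, from 181 and 272 counts. The coding transcript Cdk1-202, of 1253 nt, had 983 and 1623 counts. For Ccnb1, the retained-intron transcript Ccnb1-204, of 1075 nt, held 53.0% and 60.2% of the TPM, from 549 and 940 counts. These were 31.7% and 36.8% of the counts of Ccnb1. Tyms was led by Tyms-205, of 797 nt and annotated as a target of nonsense-mediated decay, at 47.8% and 61.7%. It had 336 and 731 counts, or 25.2% and 37.6% of the counts of Tyms. Top2a was led by the noncoding Top2a-207, of 803 nt, at 42.2% and 52.2%, from 232 and 372 counts. In Cenpf, the coding fragment Cenpf-202, of 358 nt, held 75.9% and 80.0% of the TPM from 18.6 and 33.2 counts, while the full Cenpf-204, of 11130 nt, had 356 and 482 counts. Gene-level TPM of these genes therefore rests in large part on annotated pieces shorter than the main coding transcript.

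Some differences between the libraries came from such pieces. In Bub1 (chromosome 2, 127801122 to 127831865), the noncoding Bub1-205, of 438 nt, held 19.7% of the TPM in replicate 1, on 6.51 counts, against 70.4% in replicate 2, on 52.7 counts. Its coding transcript Bub1-201 was at 1.81 and 1.66 TPM. The log2 ratio of Bub1 was 0.65 over all transcripts and -0.08 over coding transcripts, and the deposited bounds of the libraries (2.72 to 4.61 and 4.57 to 7.27 TPM) overlapped. The higher level of Bub1 in replicate 2 was thus absent from its coding transcript. In Mcm3, the retained-intron transcript Mcm3-205 held 10.9% and 41.3%, and the coding Mcm3-201 was at 12.1 and 11.04 TPM. Over coding transcripts the log2 ratio of Mcm3 went from 0.41 to -0.12, that of Tyms from 0.36 to -0.08 and that of Chek1 from -0.13 to 0.26. Ccna2, which went from -0.21 to 0.15, had its noncoding part higher in replicate 1: Ccna2-202, with a retained intron, held 47.8% and 17.8%, and the coding Ccna2-201 was at 21.1 and 23.6 TPM. Kif20a was assigned wholly to Kif20a-202 in replicate 1 and wholly to Kif20a-201 in replicate 2, transcripts of 3565 and 3567 nt. Over coding transcripts 2 of the 35 genes were at least 1.5-fold apart, against 15.2% of all genes with such transcripts: Mki67 and Ccnd2, for each of which only 1 transcript is annotated.

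**Figure D5:**
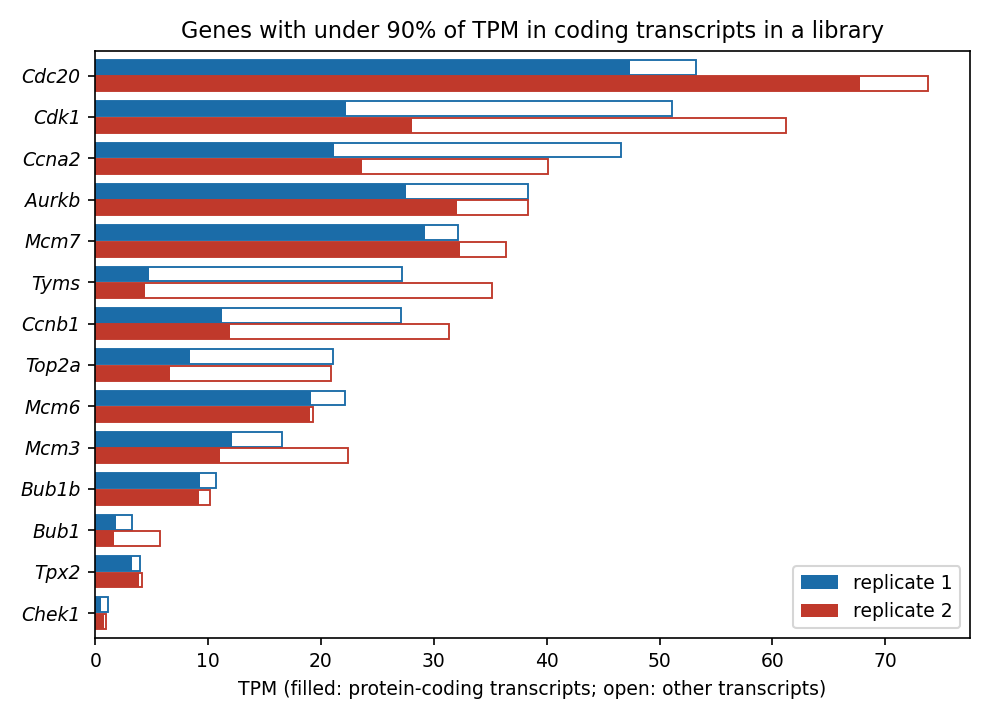
Level (TPM) of the genes with under 90% of their TPM in protein-coding transcripts in at least 1 library, divided into coding (filled) and other transcripts (open), for replicate 1 and replicate 2. The filled bars of Bub1 and Mcm3 are of like length in both libraries (1.81 and 1.66 TPM, and 12.1 and 11.04 TPM), while their open parts are longer in replicate 2.

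Other genes of the same pathways gave a setting for the 37. Of 7 other G1 cyclin and kinase genes none was 1.5-fold apart, against 17.5% of all genes (median -0.07). They were led by Cdk4, the kinase gene of D-type cyclins, at 173 and 214 TPM, with Ccnd3 at 43.0 and 52.2 TPM. Of 6 cyclin-dependent kinase inhibitor genes none was 1.5-fold apart (median -0.17). Cdkn1a, which encodes p21, was at 173 and 161 TPM and Cdkn2b, which encodes p15, at 144 and 122 TPM, so both lay above each of the 37 genes. The furthest apart in these lists were the kinase gene Cdk6 (-0.36) and Cdkn1b, which encodes p27 (-0.42). Of 12 genes of the retinoblastoma and E2F families 4 were at least 1.5-fold higher in replicate 1, against 14.5% of all genes, and none in replicate 2, against 3.06%. These were Rb1, Rbl1, Rbl2 and, furthest apart at -0.77, Tfdp2, and with TMM-scaled counts none of the 12 passed, against 8.63% and 4.72% of all genes higher in replicate 1 and in replicate 2. E2f4, the most abundant at 107 and 115 TPM, encodes a mainly repressive E2F, and Tfdp1, an E2F partner, was at 52.5 and 47.7 TPM.

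Replication and mitosis genes outside the 37 gave these counts. Of 14 origin and helicase loading genes 1, Orc3, which encodes a subunit of the origin recognition complex, was at least 1.5-fold higher in replicate 1, against 14.5% of all genes (median -0.06), and it did not pass by TMM-scaled counts (-0.17). Gins2 (22.5 and 25.5 TPM) and Cdc45 (14.9 and 17.2 TPM), parts of the active helicase, were the most abundant. The 20 fork and nucleotide genes had a median of 0.09. The thymidine kinase gene Tk1, at 71.8 and 65.1 TPM, and the polymerase gene Pold1, at 46.1 and 52.96 TPM, led that list. Of 24 other mitotic genes none was 1.5-fold apart, against 17.5% of all genes, and 16 were higher in replicate 2, against 33.3%, with a median of 0.12. By TMM-scaled counts 2 of them, Cdca8 (0.68) and Cdca5 (0.66), were at least 1.5-fold higher in replicate 2, against 4.72%. Ube2c, which encodes a ubiquitin-conjugating enzyme of the anaphase-promoting complex, was at 117 and 150 TPM, and Cdca3 at 91.1 and 119.5 TPM. Cdca8, of the chromosomal passenger complex, was furthest apart by TPM, at 0.51. Of 9 regulators of mitotic entry Wee1, an inhibitor of Cdk1, and Lin54, a DNA-binding subunit that recognises CHR, were at least 1.5-fold higher in replicate 1 (-0.61 and -0.63), against 14.5% of all genes. By TMM-scaled counts neither passed (-0.54 and -0.43), and Cdc25c, a phosphatase gene, passed in the other direction (0.64). Fzr1, the late activator of the anaphase-promoting complex, was at 64.7 and 66.8 TPM and Cdc25b, a phosphatase that activates Cdk1, at 28.3 and 29.2 TPM.

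Markers of cells that could carry these transcripts were examined next. The 10 crypt stem and transit amplifying genes were all detected and summed to 482 TPM in replicate 1 against 358 TPM in replicate 2, led by Olfm4 at 296 and 183 TPM and Smoc2 at 44.5 and 45.1 TPM. Without Olfm4 they summed to 187 and 175 TPM. Their median log2 ratio was -0.19 by TPM and 0.05 by TMM-scaled counts, so its sign depends on the scale. The 10 B cell and germinal centre genes summed to 107 and 158 TPM, and of 8 tested 4 were at least 1.5-fold higher in replicate 2, against 3.06% of all genes, with a median of 0.51. They were led by Cd79a at 45.7 and 69.6 TPM and Cd79b at 29.9 and 49.1 TPM, and none was at 0 counts in both libraries. The 7 T cell genes, led by Trac and Cd3e, summed to 48.9 and 50.8 TPM. The 6 plasma cell genes, led by Jchain and Xbp1, summed to 1748 and 1067 TPM, and the 10 epithelial genes, led by Lgals4 and Krt8, to 12418 and 11240 TPM. Ratios of the 8 B cell genes tested ran from -0.24 to 0.70, with 7 higher in replicate 2, against 33.3% of all genes. Mitosis genes thus lay higher in the same library as most B cell genes. Medians were also above 0 for Paneth markers (0.57), smooth muscle genes (0.19) and T cell genes (0.06). They were below 0 for crypt (-0.19), epithelial (-0.14), plasma cell (-0.67), macrophage (-0.23) and erythroid (-0.16) genes. The median of all genes was itself -0.14 by TPM, so epithelial and erythroid genes lay near it. By TMM-scaled counts the medians of epithelial (0.03) and erythroid (0.05) genes were above 0, as for crypt genes, against 0.01 for all genes. Those of plasma cell (-0.51) and macrophage (-0.06) genes stayed below 0. The part of any of these cells in the cell cycle levels was not tested.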

How the data were processed

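PolyA RNA-seq of 2 libraries was analysed from gene and transcript tables. Per the notes deposited with them, these use GENCODE M4 on mm10. Aligner and quantifier, as well as their versions, remain not given in the sources used here. Values deposited by the authors are expected counts, which are estimated and need not be whole, TPM, which was the main unit, and FPKM, kept for a check of scaling. The percent of a gene's TPM held by each transcript was taken as deposited. Bounds on TPM are a deposited signal whose level is not stated. They surround the posterior mean values, and the deposited TPM of Ccne2 lies outside its bounds in both libraries.

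Symbols, positions and transcript types came from GENCODE M21, matched on identifiers without version, with a symbol for 42462 of 43346 genes. All 203 listed genes were matched. A pseudocount of 1 was added to TPM, and replicate 2 was divided by replicate 1 on the log2 scale, over 13512 genes averaging 1 TPM or more, which understates differences of low genes. The ratio step was tested on simulated data. Expected counts were rounded to whole numbers for scaling in R 4.3.3, by TMM (edgeR 4.0.16) or size factors by the median of ratios (DESeq2 1.42.0). Python 3.11.15 with pandas 2.3.3, numpy 2.4.6 and matplotlib 3.10.9 did the rest. Promoter sequences came from RefSeq, GRCm38.p6.

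The members, lists and alternatives were chosen with earlier results of these data known. All 37 genes were named, with up to 2 of the highest genes of other lists and, in pathway lists, the gene furthest apart. Genes past 1.5-fold in a pathway list and the label check genes were named after their values were seen. Some values of listed genes are not reported here. With 1 library a side no p-value was computed. Precision is limited by 2 libraries and by counts of 49 to 14726 per gene. Junction and contig lists on another build (mm9) were not used.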

Additional observations from a re-analysis of the deposited data

How the results depend on the processing

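No paired analysis was possible because the labels give 1 group. The median log2 ratio of the cell cycle genes between the libraries, 0.000367 from TPM, follows the scale. It was 0.00134 with posterior means, -0.00133 with no filter on low values, 0.0131 over coding transcripts and -0.0292 with mitochondrial genes and spike-ins left out of the TPM total. It was 0.165 with FPKM, 0.186 with TMM, 0.189 with median-ratio size factors and 0.219 after subtraction of the length class median. The count of genes at least 1.5-fold apart was 3 or 2 in every alternative but the length subtraction, which left 1. With the filter on low values, the share of all genes apart ran from 13% to 23.1% over the alternatives. With no filter it was 6.05%, and the members, with 3 of 37 apart, then no longer lay below all genes. The replication to mitosis ratio of levels, 0.946, was 1.30 with geometric means, 1.49 with expected counts and no length correction, and 1.33 over coding transcripts. Leaving out 1 library gave 0.864 and 1.03. The median level of all 37 genes, 20.7 TPM, was 11.6 TPM over coding transcripts, and 18.8 and 20.9 TPM with 1 library left out. Over coding transcripts 6 log2 ratios changed sign: Bub1 to -0.0791, Mcm3 to -0.12, Tyms to -0.08, Ccna2 to 0.15, Chek1 to 0.26 and Ccnd1, near 0, to 0.01. CHR was found in 5 mitosis genes and E2F in 4 replication genes when only the part of the window before the start was searched. Coding transcripts and the length subtraction were added after seeing the data. Some genes under 5 TPM rest on few counts, such as Ccne2 (49 and 61) and Chek1 (99 and 138). Mki67, at 10075 nt, had 2620 and 1907 counts at 6.00 and 3.35 TPM. The cause of the shifts between alternatives was not tested.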

Other observations

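Several cell cycle genes divided their RNA between protein-coding transcripts, and the division differed between the libraries. In Cdk2 the transcript Cdk2-201, of 2288 nt, held 53.1% of the gene's TPM in replicate 1 against 65.9% in replicate 2, and Cdk2-202, of 2432 nt, the other 46.95% and 34.1%. In Tpx2 the transcript Tpx2-207 held 40.6% and 66.5% and Tpx2-206 held 28.1% and 23.2%. Ccne2 was shared between Ccne2-207 (83.1% and 60.5%) and transcripts seen in a single library, on 49 and 61 counts in all. In Ccna2 the transcript Ccna2-203, annotated as a target of nonsense-mediated decay, held 6.21% and 22.2%. Among markers of other cells, the 6 smooth muscle genes had a median log2 ratio of 0.19 and the 6 macrophage genes -0.23. The 4 erythroid genes tested were at -0.16 and the 10 housekeeping genes at -0.13, near the median of all genes (-0.14).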
